A study of Mus musculus with 6 samples.

Results

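Hand1 and Hand2 are the only members of the HAND family of basic helix-loop-helix (bHLH) transcription factors in the mouse, and their rows were taken by gene symbol from the RNA-seq table of the cardiac progenitor (CP) cells. They are 2 of the 25701 genes in the table, and both were among the 15372 genes that reached a mean of 10 normalized counts over the 6 libraries and were tested. The libraries are polyA RNA from CP cells that were differentiated from 46C mouse embryonic stem cells (ESCs), which carry a fluorescent reporter in the neural gene Sox1. Of the 6, 3 are labelled Zhx1-KO and 3 are of the control, 46C-Ctrl, which carries no Zhx1 deletion. For Zhx1-KO, guide RNAs at the start and the stop of Zhx1 were delivered together with Cas9 to wild-type 46C cells, and lines were picked by PCR. The sources used here do not say how many clones the libraries stand for. Both groups passed through the same protocol, in which ascorbic acid, human BMP4, human Activin A, VEGF and then FGF10 and bFGF were added to the medium. Since BMP4 was supplied from outside, the Bmp4 transcript given further on is that of the cells themselves. Zhx1, which encodes a zinc finger and homeobox protein on chromosome 15, had 225, 325 and 308 normalized counts in the libraries labelled Zhx1-KO, against 460, 181 and 457 in 46C-Ctrl. The groups overlapped, and 46C-Ctrl replicate 2 was the lowest of the 6 libraries. The log2 fold change of Zhx1 was -0.25 (adjusted p = 0.579 from limma), and -0.70 without 46C-Ctrl replicate 2 (adjusted p = 0.0121), so this whole-gene value alone does not settle the label, and "labelled Zhx1-KO" is written throughout. The study also examined the knockout by PCR of the deletion and by Zhx1 mRNA and protein in ESCs, and measured CP genes apart from the sequencing, none of which is analysed here.

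HAND proteins bind E-box DNA as dimers with the widely expressed E proteins, and Id proteins, which lack the DNA-binding region, take E proteins away from such dimers. In the mouse embryo Hand1 is expressed in trophoblast, extraembryonic and lateral plate mesoderm and the early left ventricle, and Hand2 in the right ventricle and outflow tract, the limb buds, the branchial arches and the sympathetic nervous system. Mouse embryos without Hand1 die early with placental and heart defects, and those without Hand2 have a hypoplastic right ventricle. BMP signals and GATA factors act upstream of both genes.

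Hand1 (ENSMUSG00000037335.13) lies on the minus strand of chromosome 11 of GRCm38, from 57828705 to 57832818, and Hand2 (ENSMUSG00000038193.4) lies on the plus strand of chromosome 8, from 57320983 to 57324633. Coordinates are 1-based. In the GENCODE annotation of that build Hand1 has 3 transcripts, of which the longest has 1904 bases in 2 exons, and Hand2 has 1 of 2351 bases, also in 2 exons. The coding parts have 648 bases in Hand1 and 651 in Hand2. Since the 2 genes are paralogs, the reads that could be shared between them matter for what follows. The longest run of bases that is identical in the transcripts of both is 17 bases, in the coding part of exon 1 of each, at 57831401 to 57831417 on chromosome 11 and at 57322291 to 57322307 on chromosome 8. That run is far shorter than the reads kept after trimming.
Shared run, on the coding strand of both genes: gtgcccgccgacaccaa

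The primers that the study used to measure both transcripts by qPCR are shown because they mark which part of each gene was also read outside the sequencing. Each of the 4 matched transcripts of 1 gene only, the one it is named for. The Hand1 primers lie in different exons of the longest Hand1 transcript, in its coding part, and span 179 bases of that transcript. The forward one covers 57831338 to 57831357 and the reverse one 57829642 to 57829661 on chromosome 11. The Hand2 primers span 141 bases. The forward one covers 57322339 to 57322358 on chromosome 8, and the reverse one crosses the junction of exons 1 and 2, both in the coding part.
Hand1 forward: gcctacttgatggacgtgct
Hand1 reverse: gtgcgccctttaatcctctt
Hand2 forward: accagctacatcgcctacct
Hand2 reverse: gcttttcaagatctcattcagc

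Of the 2 members, Hand2 matched an entry in the RefSeq promoter table, and the 250 bases before its start (GRCm38.p6, chr8:57320733-57320982, plus strand) are shown because Hand2 and Hand2os1 both fell, as described further on. RefSeq places the start of Hand2os1, a non-coding RNA on the other strand, 124 bases before that of Hand2, so it lies within this stretch, which ends at the base before the start of Hand2. The GENCODE model of Hand2os1 starts elsewhere, at 57324233, inside Hand2. Capitals mark the matches on either strand of the letters CANNTG (the E-box), GATAA (for GATA factors), GGCGCC (a GC-rich element bound by Smads) and CCAAT. No 2 matches overlap.
Hand2 promoter: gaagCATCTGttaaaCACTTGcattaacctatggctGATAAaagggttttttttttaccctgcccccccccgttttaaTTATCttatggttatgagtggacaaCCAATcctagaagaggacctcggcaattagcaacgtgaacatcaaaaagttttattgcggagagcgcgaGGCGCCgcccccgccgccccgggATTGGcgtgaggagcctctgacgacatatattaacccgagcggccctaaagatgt
The E-box letters matched 2 times, from 246 to 241 and from 235 to 230 bases before the start. GATAA matched 2 times, on the plus strand 214 to 210 bases and on the minus strand 172 to 168 bases before it. CCAAT matched at 147 to 143 and, on the minus strand, at 55 to 51, and GGCGCC 1 time at 78 to 73. Among 32851 promoter windows of this length, 66.2% held an E-box match, 22.6% GATAA, 33.8% CCAAT and 9.59% the Smad-bound element. The letters TATAAA, which 12.4% held, had 0 matches. These matches are a description of the letters and not of bound sites.

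Hand1 and Hand2 were both far lower in the libraries labelled Zhx1-KO than in 46C-Ctrl, Hand1 by a larger factor. Hand1 had 177, 186 and 230 normalized counts in the libraries labelled Zhx1-KO, replicates 1, 2 and 3, against 6036, 5405 and 5881 in 46C-Ctrl. Each library labelled Zhx1-KO lay far below each of 46C-Ctrl, with replicate 3 the highest of its group. The means were 198 ± 28.1 in the libraries labelled Zhx1-KO and 5774 ± 329 in 46C-Ctrl (SD, n = 3 each), so that 3.42% of the control level was left, a 29.2-fold lower mean. The log2 fold change was -4.87 (standard error 0.10, 95% interval -5.11 to -4.63, adjusted p = 1.5e-07 from limma). In the same order, Hand2 had 237, 179 and 170 normalized counts in the libraries labelled Zhx1-KO, against 1133, 1045 and 1167 in 46C-Ctrl. These groups did not overlap either, and here replicate 3 of the libraries labelled Zhx1-KO was the lowest and replicate 1 the highest. The means were 195 ± 36.3 in the libraries labelled Zhx1-KO and 1115 ± 63.4 in 46C-Ctrl (SD, n = 3 each), which left 17.5% of the control level, a 5.71-fold lower mean. The log2 fold change was -2.52 (standard error 0.13, 95% interval -2.82 to -2.22, limma adjusted p = 5.2e-06). For each gene alone, the exact permutation test (two-sided) gave p = 0.1, the smallest that 3 libraries against 3 can reach.

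Both members were called lower, where 26.4% of all genes tested were, and 25.6% were called higher (52.0% in either direction). All 3 libraries labelled Zhx1-KO lay below all 3 of 46C-Ctrl in 30.4% of the genes tested, and above all 3 in another 30.4%. Groups without overlap were thus common. Among the 15372 log2 fold changes Hand1 was the 47th lowest and Hand2 the 290th lowest, beside a median of 0.01 over all of them. In bulk RNA, fewer cells that express a gene and less RNA per cell cannot be told apart. The study describes its statistical data in general as coming from independent experiments, but nothing ties this to the sequenced libraries, so the spread that the p-values measure may be technical. The sums of the libraries, in units of their own smallest step (about 1 read), ran from 13769967 to 15940874. Hand1 accounted for 176, 184 and 261 such units in the libraries labelled Zhx1-KO and 6189, 5221 and 5577 in 46C-Ctrl. Hand2 accounted for 235, 177 and 193 units in the libraries labelled Zhx1-KO and 1162, 1009 and 1107 in 46C-Ctrl, so neither gene was near the limit of detection in any library. 46C-Ctrl replicate 2, which stood apart from its group for Zhx1, held the lowest value of that group for both members. Without that library the log2 fold changes were -4.92 for Hand1 and -2.57 for Hand2.

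**Figure D1:**
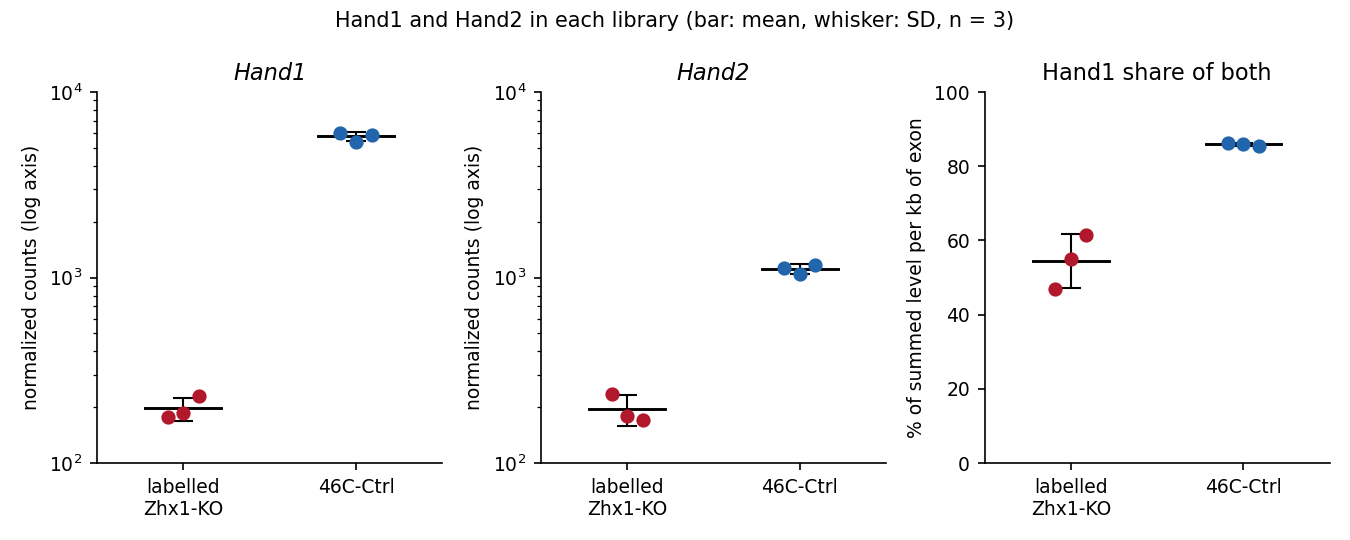
Normalized counts of Hand1 (left) and Hand2 (middle) on a log axis, and the share of Hand1 in the summed level of both per kb of exon (right, in percent). Points are the 3 libraries of each group, lines are means and whiskers the SD. The libraries labelled Zhx1-KO stand at 177 to 230 for Hand1, 170 to 237 for Hand2 and 46.9% to 61.4% for the share, and those of 46C-Ctrl at 5405 to 6036, 1045 to 1167 and 85.6% to 86.2%.

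The balance between the paralogs differed as well. The log2 ratios of Hand1 to Hand2 normalized counts were -0.42, 0.06 and 0.43 in the 3 libraries labelled Zhx1-KO, against 2.41, 2.37 and 2.33 in 46C-Ctrl. The ratio was nearly constant among the libraries of 46C-Ctrl and spread about 0 among those labelled Zhx1-KO, where Hand2 exceeded Hand1 in replicate 1 only. The difference of the mean ratios, which is the difference between the changes of both genes, was -2.35 (standard error 0.25, exact two-sided permutation p = 0.1, the smallest possible). To compare levels between the genes, values were divided by the summed exon length, 1997 bases for Hand1 and 2351 for Hand2. Per kb, Hand1 stood at 99.0 ± 14.05 in the libraries labelled Zhx1-KO and 2891 ± 165 in 46C-Ctrl, and Hand2 at 83.0 ± 15.4 in the libraries labelled Zhx1-KO and 474 ± 27.0 in 46C-Ctrl (SD, n = 3 each). Of the summed level per kb of both genes, Hand1 made up 46.9%, 55.0% and 61.4% in the libraries labelled Zhx1-KO and 86.2%, 85.9% and 85.6% in 46C-Ctrl. The summed level itself was 182 ± 11.1 per kb in the libraries labelled Zhx1-KO and 3366 ± 189 in 46C-Ctrl (SD, n = 3 each), with 5.41% of the control left. Its SD in the libraries labelled Zhx1-KO was below that of either gene, which ranked these libraries in opposite order. With 3 libraries, such a difference in spread cannot be told from noise. Ranked by level per kb among 15153 genes with a length, Hand1 was the 6098th from the top in the libraries labelled Zhx1-KO and the 236th in 46C-Ctrl. Hand2 was the 6731st in the libraries labelled Zhx1-KO and the 1610th in 46C-Ctrl. Hand1 thus stood above 59.8% of genes in the libraries labelled Zhx1-KO and above 98.4% in 46C-Ctrl, and Hand2 above 55.6% in the libraries labelled Zhx1-KO and above 89.4% in 46C-Ctrl.

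The chromosomes of the 2 genes differed in their general level. On chromosome 11, the chromosome of Hand1, 57.0% of 1185 genes tested were called higher and 9.62% lower, with a median log2 fold change of 0.42. Hand1 was the 2nd lowest of these genes, -5.29 from their median on the log2 scale. On chromosome 8 the median of 793 genes was -0.01, with 21.2% called higher and 28.9% lower, and Hand2 was the 11th lowest. The higher level of chromosome 11 runs against the direction of Hand1.

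**Figure D2:**
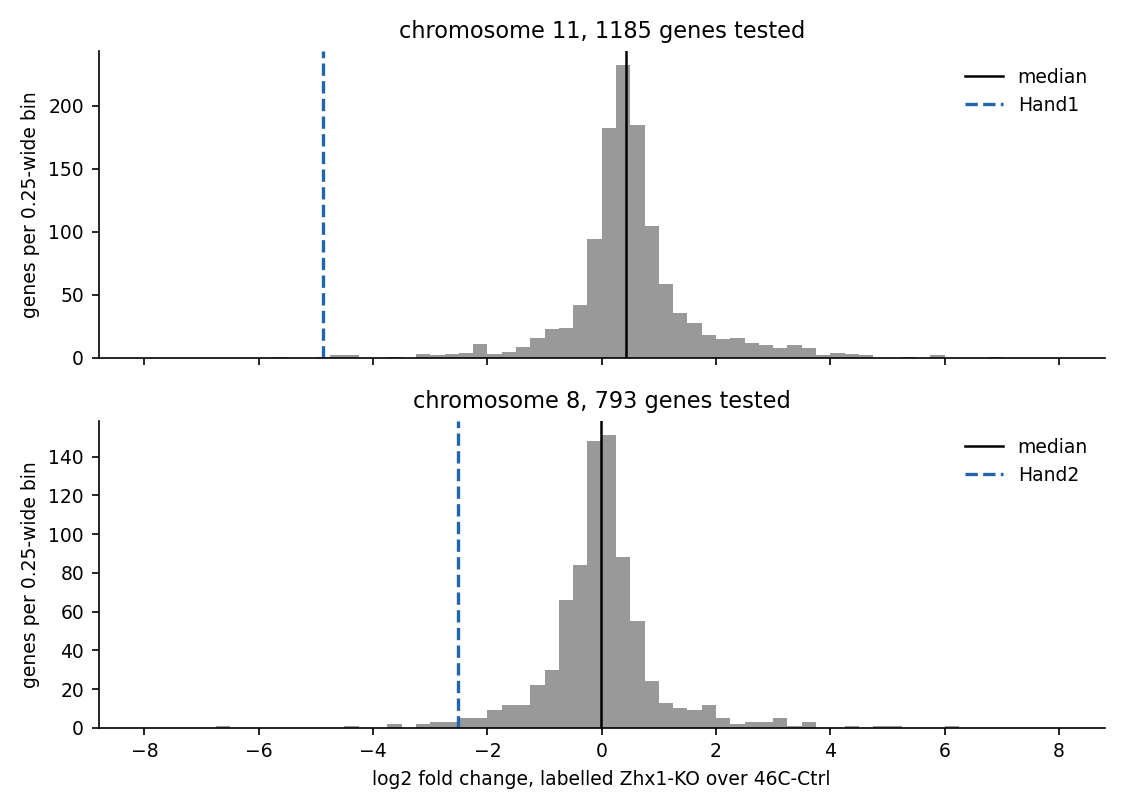
Log2 fold changes (libraries labelled Zhx1-KO over 46C-Ctrl) of the genes tested on chromosome 11 (top) and chromosome 8 (bottom), as the number of genes in each bin of 0.25. The solid line is the chromosome's median (0.42 and -0.01) and the dashed line is Hand1 (-4.87) or Hand2 (-2.52), in the lower tail of its chromosome.

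The genes around each member are given next, since a fall of a whole neighbourhood and a fall of a single gene look alike in one row of the table. Hand1 and Hand2 lie in paralogous neighbourhoods. Hand1 is followed in its direction of transcription by Sap30l and Galnt10, and Hand2 by Sap30 and Galnt7, which encode related subunits of the Sin3 deacetylase complex and related enzymes that start O-linked glycosylation. Within 500 kb of the start of Hand1, 16 of the 23 genes in the table were tested, with 7 called higher, 3 called lower and 6 without a call. Their median log2 fold change was 0.42, the same as that of chromosome 11, where 57.0% were called higher and 9.62% lower. Galnt10 had 1385, 1553 and 1401 normalized counts in the libraries labelled Zhx1-KO, against 2695, 2581 and 2778 in 46C-Ctrl, a log2 fold change of -0.89 (adjusted p = 2.1e-05 from limma). It lies 187 kb from the start of Hand1 and is the only one of the 3 lower neighbours whose call held under each alternative tried. Sap30l, 31.2 kb from Hand1, had 683, 780 and 731 in the libraries labelled Zhx1-KO, against 876, 817 and 842 in 46C-Ctrl. Its groups did not overlap, but the log2 fold change of -0.21 (adjusted p = 0.0375) lost its call on leaving out Zhx1-KO replicate 1 or 3 or 46C-Ctrl replicate 1 or 3 (adjusted p from 0.0839 to 0.118), and under other scalings. The third, Gm12245, is a processed pseudogene (log2 fold change -0.33) whose reads may come from its parent gene, and leaving out Zhx1-KO replicate 1 (adjusted p = 0.0610) or 46C-Ctrl replicate 1 (0.0581) ended the call.
On the other side of Hand1, Larp1, an RNA-binding protein of ribosomal protein mRNAs, had 5632, 5711 and 5585 normalized counts in the libraries labelled Zhx1-KO, against 6130, 5254 and 5824 in 46C-Ctrl. The groups overlapped, and the log2 fold change of -0.02 changed sign with the scaling. Cnot8, a deadenylase of the CCR4-NOT complex (log2 fold change 0.60), Gemin5 of the SMN complex (0.33) and Mrpl22, a mitochondrial ribosomal protein (0.94), were higher, as were Zfp692 (0.70), Sh3bp5l (0.51) and, beyond Galnt10, Fam114a2 (0.81). The interferon-inducible GTPase Igtp had 58.5, 68.8 and 60.7 in the libraries labelled Zhx1-KO, against 0, 21.7 and 6.33 in 46C-Ctrl, and leaving out Zhx1-KO replicate 2 (adjusted p = 0.0574) or 3 (0.0537) ended the call. The other 5 neighbours without a call were Mfap3, 2010001A14Rik, Gm12247, Irgm2 and Zfp672.

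Around Hand2, the libraries labelled Zhx1-KO had lower values of the non-coding genes next to it, which were low in both groups, and the coding genes farther out lay between -0.41 and 0.20 on the log2 scale. Of the 16 genes in the table within 500 kb, 7 were tested, with 4 called lower, 1 called higher and 2 without a call. Their median log2 fold change was -0.41. On chromosome 8 as a whole, 28.9% of the genes tested were called lower and 21.2% higher. The long non-coding RNA 5033428I22Rik, which starts 11.1 kb downstream of the start of Hand2, had 8.06, 7.08 and 6.16 normalized counts in the libraries labelled Zhx1-KO, against 48.8, 64.2 and 62.2 in 46C-Ctrl. The groups did not overlap, and the log2 fold change was -2.87 (adjusted p = 0.00014 from limma). Gm34030, another long non-coding RNA, 13.6 kb downstream, had 3.02, 5.06 and 1.76 in the libraries labelled Zhx1-KO, against 15.6, 33.1 and 18.98 in 46C-Ctrl (log2 fold change -2.47, adjusted p = 0.00503). Hand2os1 had 9.07, 3.03 and 4.40 in the libraries labelled Zhx1-KO, against 13.7, 34.2 and 23.2 in 46C-Ctrl (log2 fold change -1.94, adjusted p = 0.0165), and its call ended without 46C-Ctrl replicate 2 (adjusted p = 0.0533). Its GENCODE model, from 57281117 to 57324233 on the minus strand, overlaps Hand2. The study mapped reads with strand, but no source used here says whether these counts used strand, so reads from Hand2 and Hand2os1 cannot be told apart where they overlap. No annotated gene overlaps Hand1. Sap30, 167 kb downstream, had 679, 724 and 703 in the libraries labelled Zhx1-KO, against 612, 606 and 610 in 46C-Ctrl. That log2 fold change of 0.20 (adjusted p = 0.0236) ended its call without Zhx1-KO replicate 2 or 3 or 46C-Ctrl replicate 1 or 3 (adjusted p from 0.0523 to 0.0799). Galnt7, 332 kb downstream, was lower, with 547, 550 and 564 in the libraries labelled Zhx1-KO and 690, 796 and 723 in 46C-Ctrl (log2 fold change -0.41, adjusted p = 0.0024). Hmgb2, a chromatin protein between them, had a log2 fold change of 0.11 without a call, and 2500002B13Rik was not called either.

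**Figure D3:**
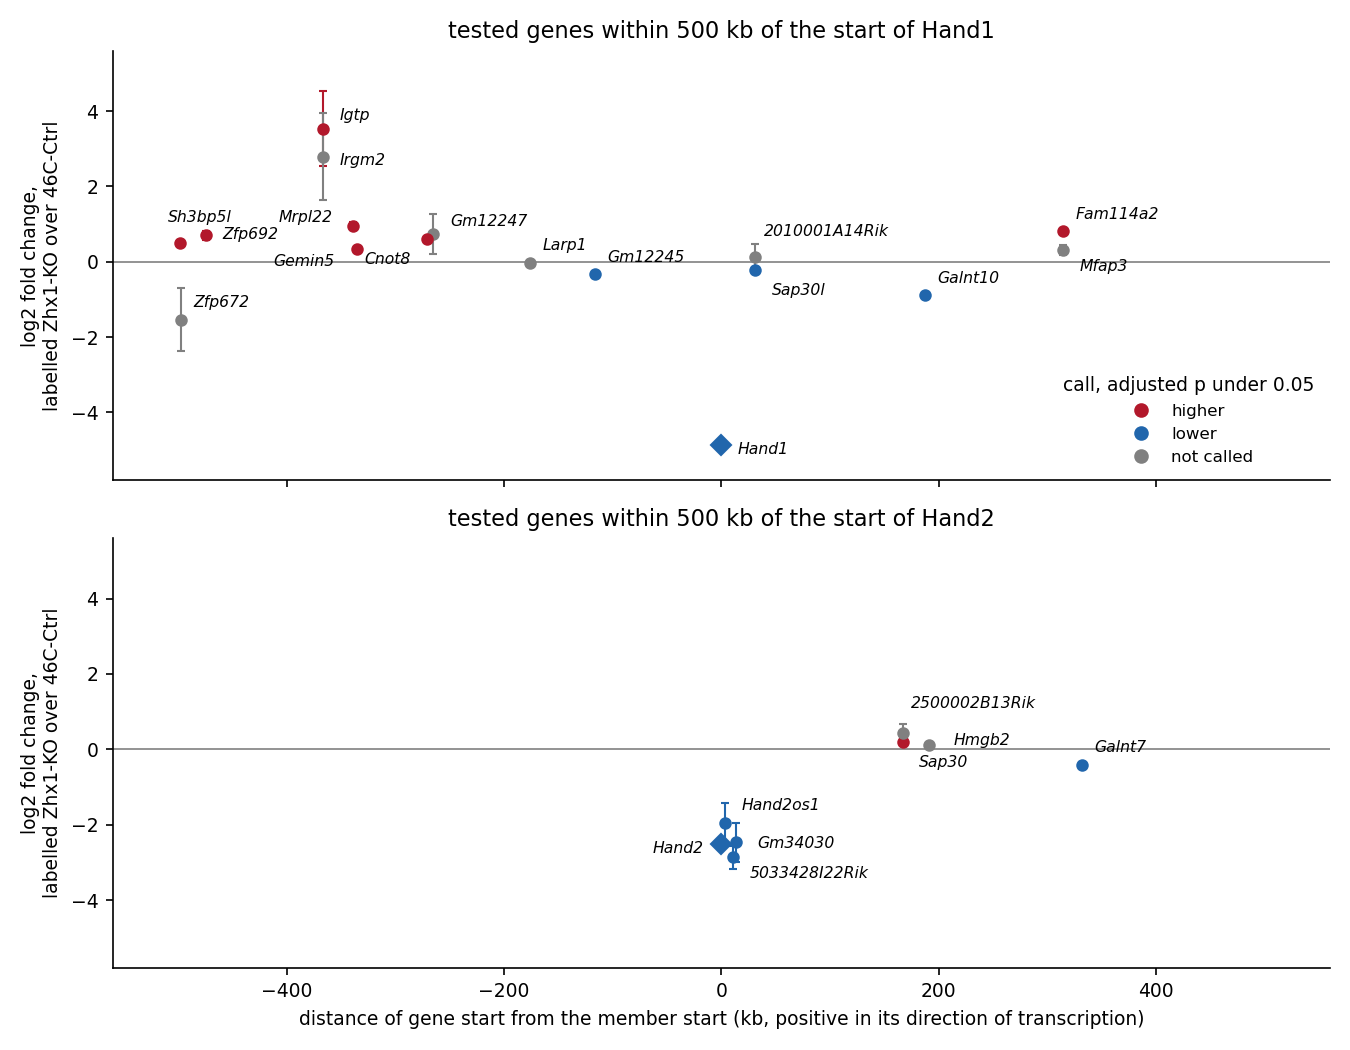
Log2 fold changes (libraries labelled Zhx1-KO over 46C-Ctrl, bars are standard errors) of the tested genes within 500 kb of the start of Hand1 (top) and Hand2 (bottom), by the distance of their starts in kb, positive in the direction in which the member is transcribed. Hand1 (-4.87) stands alone below its neighbours, of which Galnt10 (-0.89) is the lowest called, and Hand2 (-2.52) stands beside 3 non-coding genes from -2.87 to -1.94.

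Among the E proteins, with which HAND factors pair, a single one was higher, and all Id genes were lower. Of the 3 E proteins, Tcf3 (E2A) had 1891, 2056 and 1548 normalized counts in the libraries labelled Zhx1-KO, against 746, 443 and 324 in 46C-Ctrl, a log2 fold change of 1.94 (adjusted p = 0.00073 from limma). The groups did not overlap, and the libraries of 46C-Ctrl spread widely. Tcf4 (-0.07) and Tcf12 (-0.02) were not called. Tcf4 averaged 496 ± 75.6 in the libraries labelled Zhx1-KO and 520 ± 48.8 in 46C-Ctrl, and Tcf12 averaged 1575 ± 191 in the libraries labelled Zhx1-KO and 1599 ± 138 in 46C-Ctrl (SD, n = 3 each). The 4 Id genes, which are also targets of BMP signalling, were called lower, by log2 fold changes of -0.78 for Id1, -0.48 for Id2, -0.64 for Id3 and -1.13 for Id4. Id1 had 1736, 1918 and 1940 normalized counts in the libraries labelled Zhx1-KO, against 3264, 3029 and 3282 in 46C-Ctrl. In none of the 4 did the groups overlap. Of all genes tested, 26.4% were called lower, and 30.4% lay below 46C-Ctrl without overlap.

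Of the relatives of HAND in the Twist family, 6 of 10 listed genes were tested, with 3 higher, 1 lower and 2 not called. Among all genes tested, 25.6% were called higher and 26.4% lower. Twist1, a partner of Hand2 in the limb and craniofacial mesenchyme, had 1354, 1409 and 1398 in the libraries labelled Zhx1-KO, against 902, 852 and 1001 in 46C-Ctrl (log2 fold change 0.60, adjusted p = 0.00029). Twist1 and Hand2 thus differed in direction. The groups of each did not overlap, as in many of the genes tested (30.4% below and 30.4% above 46C-Ctrl). Tcf15, of the paraxial mesoderm (1.84), and Tcf21, of the epicardium and kidney (1.37), were higher too, and Twist2, of the dermis and mesenchyme, was lower (-1.44). Among 26 other tissue-restricted bHLH genes, 10 were tested, with 5 higher, 2 lower and 3 not called. The higher ones included Tal2 (2.61), Neurod1 (2.38), of neurons, and Tal1 (1.68) and Lyl1 (2.53), which act in blood and endothelium. Mesp1, which marks the earliest cardiac mesoderm, had 6.05, 3.03 and 8.80 normalized counts in the libraries labelled Zhx1-KO, against 104, 115 and 123 in 46C-Ctrl (log2 fold change -4.14). The other lower one was Atoh8 (-0.72), and without 46C-Ctrl replicate 2 a single gene of this list was lower. Of 6 genes for proteins that bind or modify HAND factors, 3 were lower, 1 was higher and 2 were not called. Fhl2 fell to 138 ± 3.46 in the libraries labelled Zhx1-KO, against 490 ± 16.8 in 46C-Ctrl (SD, n = 3 each, log2 fold change -1.82). Ppp2r5d, a subunit of the phosphatase that acts on HAND1, had a log2 fold change of -0.31. The third, Cops5 (-0.22, adjusted p = 0.0314), lost its call without Zhx1-KO replicate 1 or 2 or 46C-Ctrl replicate 2 or 3 (adjusted p from 0.0686 to 0.0917). Mdfi, an inhibitor of bHLH factors, was the higher one (0.38).

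The genes that act upstream of Hand1 or Hand2 were lower for the most part. Over all genes tested, 26.4% were called lower and 25.6% higher, with a median log2 fold change of 0.01. The list was chosen with earlier results of these data known. Of its 25 genes, 23 were tested, and 18 were lower, 3 were higher and 2 were not called (17 lower and 3 higher without 46C-Ctrl replicate 2). Their median log2 fold change was -1.06. The 3 higher were Bmp7, Ednra and Shh. Shh and Gli3, which was lower, also stand in the downstream list given further on. Gata4, a zinc finger factor of heart and endoderm, had 77.6, 115 and 92.4 normalized counts in the libraries labelled Zhx1-KO, against 1747, 1335 and 1746 in 46C-Ctrl (log2 fold change -4.07, adjusted p = 1.8e-06 from limma). Its relatives Gata5 (-3.22) and Gata6 (-2.30) were lower too, so all 3 cardiac GATA factors moved in the direction of the members. What part any upstream gene has in the falls of Hand1 and Hand2 was not tested. Among the ligands, Bmp2 had 172, 179 and 180 in the libraries labelled Zhx1-KO, against 933, 821 and 955 in 46C-Ctrl (-2.34), and Bmp4 had 287, 285 and 328 in the libraries labelled Zhx1-KO, against 1280, 1212 and 1456 in 46C-Ctrl (-2.13). Bmp7 went the other way, at 1279, 1260 and 1386 in the libraries labelled Zhx1-KO and 575, 553 and 592 in 46C-Ctrl (1.19). The transducer Smad1 was lower (-1.06), while Smad5 was not called (-0.02). Bmp2, Bmp4 and Bmp7 thus did not share a direction.
Edn1, the endothelin ligand upstream of Hand2 in the branchial arches, had 24.2, 20.2 and 19.4 normalized counts in the libraries labelled Zhx1-KO, against 125, 123 and 151 in 46C-Ctrl (log2 fold change -2.59). Its receptor gene Ednra was higher, at 620, 526 and 505 in the libraries labelled Zhx1-KO and 119, 127 and 171 in 46C-Ctrl (1.99). Ligand and receptor differed in direction, and in neither did the groups overlap, as in many of the genes tested. Foxf1, a forkhead factor of lateral plate mesoderm, was at -3.52. The T-box factors Eomes, Tbx5 and Tbx20 had log2 fold changes of -7.42, -4.48 and -1.79, with 1.93 ± 1.02 normalized counts of Tbx5 left in the libraries labelled Zhx1-KO, against 62.2 ± 4.78 in 46C-Ctrl (SD, n = 3 each). Smaller falls were those of Mef2c (-1.03) and Nkx2-5 (-0.82), and Isl1, a LIM homeobox factor upstream of Hand2 in the mouse limb and heart, was not called (-0.23, adjusted p = 0.311).

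Of 14 genes placed downstream of Hand1 or Hand2 in the heart, limb, nervous system or placenta, 8 were tested, with 4 lower, 3 higher and 1 not called (4 lower and 2 higher without 46C-Ctrl replicate 2). Among all genes tested, 26.4% were called lower and 25.6% higher. Tbx3, a T-box repressor, had 82.6, 102 and 81.9 normalized counts in the libraries labelled Zhx1-KO, against 1519, 1340 and 1323 in 46C-Ctrl (log2 fold change -3.96, adjusted p = 4.3e-07 from limma), and Tbx2, its close relative, was at -3.20. Fn1, fibronectin, had 11534, 11801 and 10971 in the libraries labelled Zhx1-KO, against 42603, 35804 and 37760 in 46C-Ctrl (-1.76). Shh and Grem1, which depend on Hand2 in the mouse limb bud, were higher while Hand2 was lower. Shh had 1222, 1223 and 1253 in the libraries labelled Zhx1-KO, against 345, 335 and 398 in 46C-Ctrl (1.78), and Grem1 had 66.5, 49.6 and 51.9 in the libraries labelled Zhx1-KO, against 19.5, 13.5 and 20.0 in 46C-Ctrl (1.62). Gli3, which Hand2 opposes in the limb bud, was lower (-0.42), and Irx4, of the ventricle, was not called (-0.06). Phox2a, of noradrenergic neurons, was the third higher gene (0.70, adjusted p = 0.0376), and leaving out Zhx1-KO replicate 1 or 3 or 46C-Ctrl replicate 1 or 2 ended the call (adjusted p from 0.0746 to 0.120). Nppa, Dbh, Th and Runx2 were among those below the filter on low values.

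**Figure D4:**
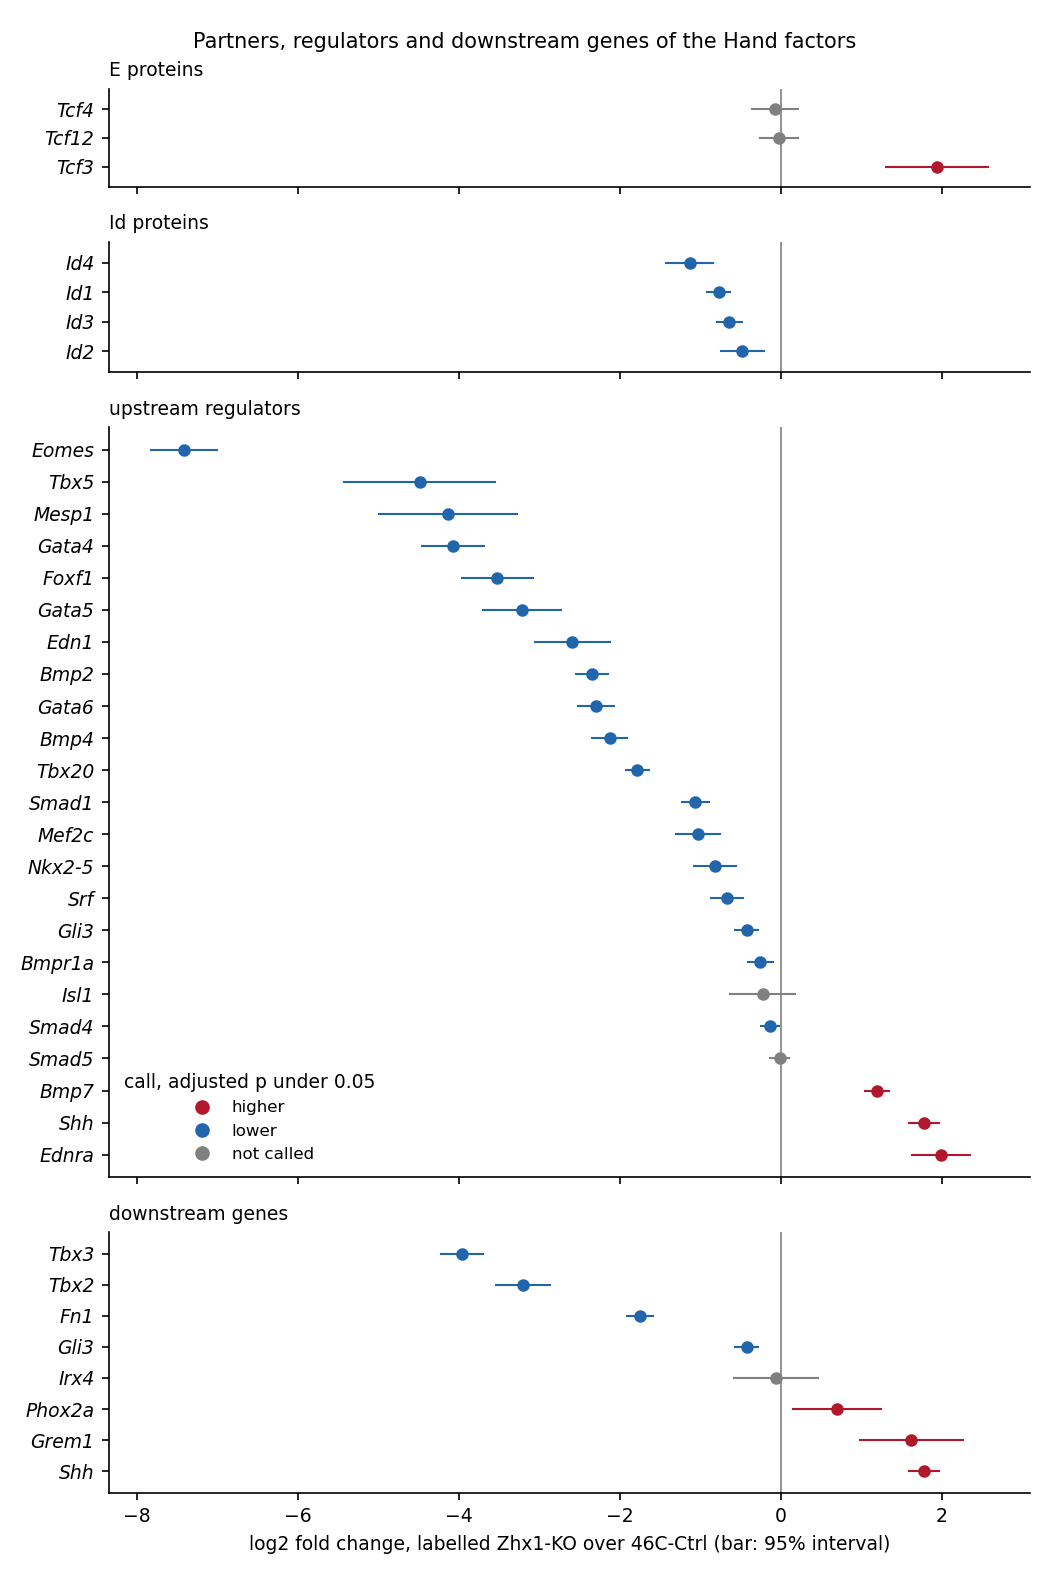
Log2 fold changes (libraries labelled Zhx1-KO over 46C-Ctrl, bars are 95% intervals) of the tested E proteins, Id proteins, upstream regulators and downstream genes of HAND factors, coloured by call. The 4 Id genes and most upstream regulators lie to the left of 0 (18 of 23 called lower, beside 26.4% of all genes tested). Tcf3 (1.94), Bmp7 (1.19), Ednra (1.99), Shh (1.78) and Grem1 (1.62) lie to the right.

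Markers of the tissues in which Hand1 and Hand2 are known moved unequally. Their counts stand beside 26.4% of all genes tested called lower and 25.6% called higher. Of 13 tested genes of lateral plate and extraembryonic mesoderm, 6 were lower, 4 higher and 3 not called, with a median log2 fold change of -0.38. Msx1 and Msx2, homeobox targets of BMP signalling, fell in the same libraries. Msx1 had 84.7, 84.9 and 90.7 normalized counts in the libraries labelled Zhx1-KO, against 1919, 1805 and 1886 in 46C-Ctrl (log2 fold change -4.41, adjusted p = 9.9e-08 from limma), and Msx2 was at -4.06. Prrx2 was higher (1.33), as were Foxf2, Pitx1 and Prrx1. Of 5 tested genes of the first heart field, where Hand1 is placed, all 5 were lower (Tbx5, Gata4, Nkx2-5, Sfrp5 and Hcn4). Of 14 genes of the second heart field, where Hand2 is placed, 6 were higher, 4 lower and 4 not called. Fgf10 had 128, 101 and 96.8 in the libraries labelled Zhx1-KO, against 1055, 1060 and 1051 in 46C-Ctrl (-3.28), and Foxc1 had 1331, 1366 and 1217 in the libraries labelled Zhx1-KO, against 229, 223 and 241 in 46C-Ctrl (2.49). Nr2f2 (1.90) rose with Foxc1, so the genes placed in that field did not share the direction of Hand2.
Of 6 tested trophoblast genes, 4 were lower and 2 not called. Cdx2 had 16.1, 18.2 and 18.5 in the libraries labelled Zhx1-KO, against 348, 299 and 383 in 46C-Ctrl (log2 fold change -4.21), and Tfap2c (-1.60) and Gata3 (-0.89) were lower too. Plac1, a placental gene, had 0, 9.10 and 6.16 in the libraries labelled Zhx1-KO, against 71.2, 110 and 91.7 in 46C-Ctrl. Krt7, a keratin of trophoblast and other epithelia, was not called, at 229, 245 and 228 in the libraries labelled Zhx1-KO and 224, 156 and 219 in 46C-Ctrl. Elf5, of trophoblast stem cells, and Gcm1, of the labyrinth, were below the filter on low values, and Gcm1 was at 0 in every library labelled Zhx1-KO. The sympathoadrenal list had 3 lower (Gata3, Gata2 and Insm1), 1 higher (Phox2a) and 1 not called, with Dbh and Th near 0, and without 46C-Ctrl replicate 2 it had 2 lower and none higher.

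Genes that mark other cell types also moved, and their part in the falls of Hand1 and Hand2 was not tested. Here too, 26.4% of all genes tested were called lower and 25.6% higher. Of 9 CP markers 6 were lower, 2 (Kdr and Pdgfra) higher and 1 not called, and their summed values ran from 4503 to 4607 in the libraries labelled Zhx1-KO and from 5777 to 6310 in 46C-Ctrl. Kdr and Pdgfra carried most of the sums in the libraries labelled Zhx1-KO, and without them, a choice made after seeing the values, the other 7 summed to 1204 to 1327 in the libraries labelled Zhx1-KO and 4285 to 4697 in 46C-Ctrl. Of 5 neural markers 4 were higher and Nes was lower, with sums from 4293 to 4463 in the libraries labelled Zhx1-KO and from 3236 to 3757 in 46C-Ctrl, where Pax6 was at 0 throughout. Of 5 endothelial markers 4 were higher and 1 not called, with sums from 3886 to 4057 in the libraries labelled Zhx1-KO and from 898 to 1010 in 46C-Ctrl. Without Kdr, which is also a CP marker here, the endothelial sums ran from 1854 to 1973 in the libraries labelled Zhx1-KO and from 288 to 380 in 46C-Ctrl. Of 5 endoderm markers 4 were lower and 1 not called, with sums from 845 to 879 in the libraries labelled Zhx1-KO and from 2330 to 2477 in 46C-Ctrl. Of 3 tested pluripotency markers 2 were lower and 1 not called, with sums from 1003 to 1152 in the libraries labelled Zhx1-KO and from 4154 to 4170 in 46C-Ctrl. Most of the CP markers kept values well above 0 in both groups. Tbx5 and Mesp1 were near 0 in the libraries labelled Zhx1-KO, and Gata4 averaged 95.1 there, against 1609 in 46C-Ctrl.

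The genes whose pattern over the 6 libraries was nearest to each member were found from the distance between log2 profiles, each centred on its own mean. A likeness in the size of the change or in library order follows in part from this choice and is not a separate result. For Hand1 the nearest was Nodal, a signalling ligand of the early embryo (distance 0.182), with 27.2, 28.3 and 32.6 normalized counts in the libraries labelled Zhx1-KO, against 968, 897 and 1009 in 46C-Ctrl. In both Nodal and Hand1, replicate 3 was highest in the libraries labelled Zhx1-KO and replicate 2 lowest in 46C-Ctrl. The highest library of 46C-Ctrl was replicate 3 for Nodal and replicate 1 for Hand1. Ccn4 (0.539), Chrm3 (0.588) and Msx1 (0.594) were among the next, together with Hoxa13 (0.472), which had 0 in all 3 libraries labelled Zhx1-KO, so that its distance is set by the pseudocount of 1. With a pseudocount of 0.5 or 5, tried after seeing the data, Nodal remained the nearest, while Hoxa13 was 16th or 169th, Chrm3 2nd or 56th, Ccn4 4th or 2nd and Msx1 5th or 7th. For Hand2 the nearest was Tnc, the matrix protein tenascin C (distance 0.147), with 259, 202 and 187 in the libraries labelled Zhx1-KO, against 1204, 1269 and 1288 in 46C-Ctrl. Unc5c, a netrin receptor (0.170), Edn1 (0.225), Spry4, an inhibitor of receptor tyrosine kinase signalling (0.281), and the clock gene Per2 (0.285) followed. Tnc and Unc5c shared with Hand2 the order of the libraries labelled Zhx1-KO, with replicate 1 the highest and replicate 3 the lowest. In 46C-Ctrl the lowest library was replicate 1 for Tnc and Unc5c and replicate 2 for Hand2. Tnc and Unc5c remained the nearest and the next with either other pseudocount. Edn1 was 3rd with 0.5 and 6th with 5, Spry4 5th and 8th, and Per2 4th and 11th. Among the 5 nearest genes of Hand1 and of Hand2 at a pseudocount of 1, Edn1 was the only upstream regulator. That the 2 sets shared no gene follows from the unequal fold changes of Hand1 and Hand2, since the distance takes in the size of the change.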

How the data were processed

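PolyA RNA of 3 libraries labelled Zhx1-KO and 3 of 46C-Ctrl was sequenced. The authors used cutadapt 1.18 for trimming, HISAT2 2.1.0 for mapping to GRCm38 and StringTie 1.3.4d for FPKM, and Cufflinks and DESeq2 stand in the submitters' processing notes. The deposited table read here holds no FPKM but a signal, the count of each gene after division by a factor of its library (normalized counts). Within a library all values are multiples of 1 step (0.880 to 1.05, 100% whole within 0.01), and the program that counted is not stated. Because the steps of Zhx1-KO replicates 1 and 2 lie too close to 1 for whole reads to be taken as recovered, no count test was run.

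The test was limma 3.58.1 in R 4.3.3, with trend, fitted by group to log2(value + 1) of the 15372 genes that reached a mean of 10. P-values were adjusted over these genes by Benjamini-Hochberg, and a gene was called below 0.05. The fold changes have this pseudocount in them and understate the change of low genes. The steps were tested on simulated data in which few genes changed. There 55 of 98 genes with a 2-fold change and 25 of 100 with a 1.5-fold change were called. Of 15308 unchanged genes 4 were called. In the data themselves 52.0% of the genes tested were called, so these shares need not hold for them. A gene without a call may still differ. Single values also had an exact permutation test. Neighbours are genes that start within 500 kb of a member in GENCODE, and promoters are from RefSeq (GRCm38.p6). The genes named are Hand1, Hand2, Zhx1, Hand2os1, the neighbours, the E and Id proteins, up to 4 tested members of each other list with the smallest adjusted p and any that a sentence turns on, and the 5 nearest profiles of each member. The members and the 17 lists were chosen with earlier results of these data known. Some genes stand in more than 1 list, so the counts of different lists are not separate results. Alternatives covered the pseudocount, the filter, the scaling, limma without trend, the replicate number as a block and each library left out in turn.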

Additional observations from a re-analysis of the deposited data

How the results depend on the processing

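Hand1 and Hand2 kept their direction and their call under each of 15 alternatives. The log2 fold change of Hand1 ran from -4.98 to -4.80 and that of Hand2 from -2.67 to -2.43, in both cases with the extremes among the fits that left out 1 library (adjusted p up to 2.5e-05 and 0.00021 from limma without trend). The difference in log2 ratio ran from -2.55 to -2.13 over 8 alternatives. With the lengths left out, an alternative chosen after seeing the data, the share of Hand1 was 50.4% in the libraries labelled Zhx1-KO and 83.8% in 46C-Ctrl. The order of the nearest profiles also depended on the pseudocount, beyond Nodal for Hand1 and Tnc and Unc5c for Hand2. Across all genes tested, the count called higher ran from 3213 to 4338 and the count called lower from 3476 to 4109.

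Same-numbered libraries showed no shared deviation, with correlations of 0.004, -0.069 and 0.0006. This does not settle whether they were prepared together. With the replicate number as a block the adjusted p from limma was 2.1e-05 for Hand1 and 9.1e-05 for Hand2, and the calls of Sap30l (0.0828), Sap30 (0.0616) and Cops5 (0.0511) ended.

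Of 96 named genes, 80 stayed on their side of the threshold, with their direction, in every alternative. The changes of sign were all in genes without a call. With quantile normalization the log2 fold change was -0.144 for 2010001A14Rik, 0.0865 for Larp1 and 0.0777 for Tcf12. By the median ratio over genes outside chromosomes 11, X and Y it was 0.0129 for Larp1 and 0.00873 for Tcf12, and rescaled to the same total 0.0224 for Larp1 and 0.0182 for Tcf12. Leaving out 1 library at a time, Larp1 ran from -0.0827 to 0.0286, Tcf4 from -0.188 to 0.0260 and Tcf12 from -0.118 to 0.0514.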
